A study of Mus musculus with 18 samples.

Results

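Resting fibers from a mouse foot muscle were treated with an inhibitor of the CaMK pathway, KN93 or KN62, or with KN92, the compound the labels give as the negative control for KN93. These unstimulated fibers make up 9 of the 18 scans of the series, with 3 arrays for each compound, and were chosen by titles that name the compound without electrical stimulation. CaMK stands for the calcium/calmodulin-dependent protein kinases, which are switched on when calcium-loaded calmodulin binds them. In skeletal muscle, where each contraction releases calcium into the fiber, these kinases are known as a link between nerve activity and the genes of slow, oxidative fibers. KN93 and KN62 are known to block the activation of CaMKII by calmodulin, and KN92 is a related compound used as a control because it lacks that action.

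All groups came from CD-1 mice of 4 to 5 weeks. The flexor digitorum brevis (FDB), a short toe flexor made largely of fast fibers, was taken whole and dissociated to single fibers. The fibers stayed in culture for 3 days in MEM with 10% serum and gentamicin at 50 ug/ml, under 5% CO2 at 37 °C. The first group received KN93, the second KN62 and the third KN92, and none of these was to be stimulated. The sources used here do not give doses, exposure times, the solvent or the number of mice per culture, nor name a group without any compound, so each difference is one between an inhibitor and KN92. RNA came from over 100 fibers per sample, so a value is a mean over many fibers. The series describes its 3 replicates per treatment as independent experiments. On every array the amplified RNA of the fibers was labelled with Cy3 and that of a reference sample with Cy5, with no dye swap. The comparisons ask what the inhibitors change in fibers at rest, and whether KN93 and KN62 change the same features.

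The array holds 22 features of 6 spots each, arranged as 2 triplets. The files do not pair them with genes, so a feature is called here by its number in the order of the deposited table, and no probe sequence can be given. The lists of slow fiber, fast fiber, calcium signalling and housekeeping genes, and the markers of muscle fibers, satellite cells, fibroblasts, endothelium and nerve, matched 0 features. The identity of the fibers was therefore not checked against markers. In bulk RNA of this kind, fewer cells of a type and less RNA per cell cannot be told apart.

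On the 9 arrays, 88 to 113 of the 132 spots had a Cy3 signal above the local background, and the median Cy3 signal lay between 1272.75 and 2708 units. The labels conflict on 1 of these arrays: the treatment text of KN92 replicate 3 says that the fibers were stimulated, while its title and source name do not. The deposited column of KN62 replicate 3 follows the scan of stimulated KN62 replicate 3 (median difference 0.05 on the log2 scale) and not its own (0.40). On KN93 replicate 3 and KN62 replicate 1 the reference channel stood apart. After quantile normalization the log2 Cy5 signal of feature 2 was 13.28 and 13.25 there, against 9.78 to 10.89 on the other 7 arrays. These 2 are called arrays of deviating Cy5. All KN92 arrays are among these 7, so a difference between references and an effect of inhibitors cannot be told apart on these 2 arrays. Values without these arrays (and the stimulated arrays of the same experiments) and without the 2 arrays in doubt are given beside the results that move with them.

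On a given array, a feature was called above background if more than 50% of its 6 spots had a Cy3 signal over the local background. By this measure 14 features (1, 2, 4, 5, 7 to 12 and 14 to 17) were above background on all 9 arrays. Features 3 and 13 reached it on no array, so their ratios carry little signal. Feature 21 was above background on 8 arrays, feature 19 on 7 and feature 18 on 6. Features 6 and 20 were above it on 3 arrays each and feature 22 on 2. Feature 1 was the only one with saturated spots, 12 in all.

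**Figure D1:**
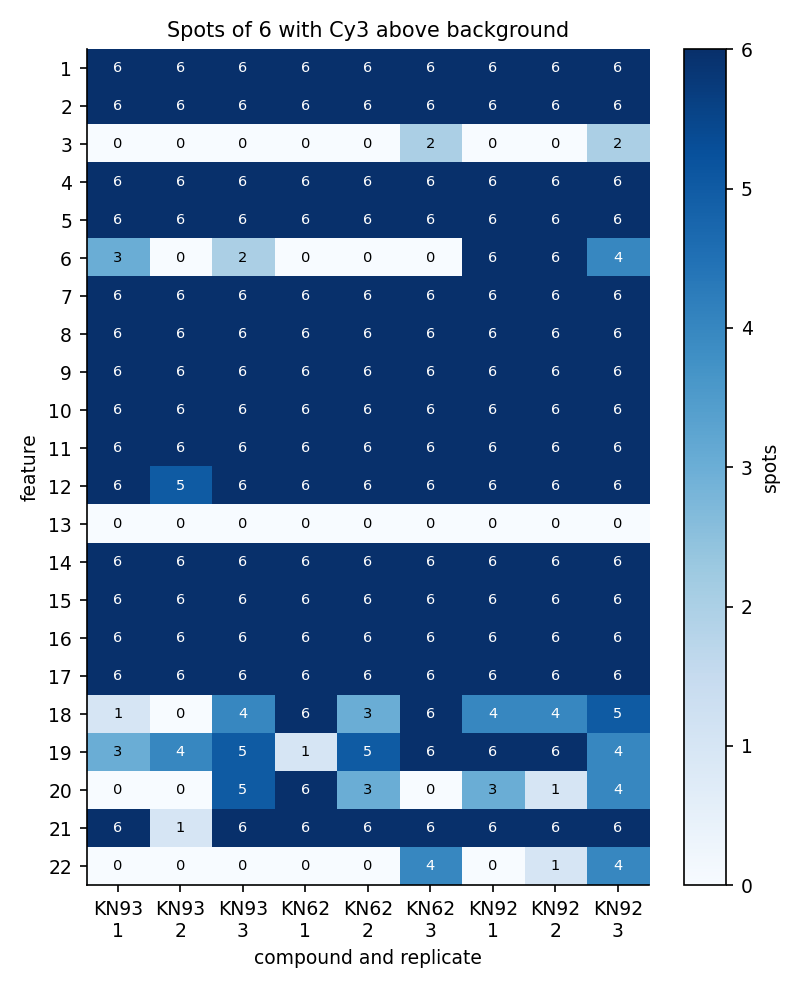
Number of the 6 spots of each feature (rows) with a Cy3 signal above the local background, on each unstimulated array (columns, grouped as KN93, KN62 and KN92). Most rows are filled on all 9 arrays, rows 3 and 13 are nearly empty, and row 6 is filled on the KN92 arrays and sparse elsewhere.

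The log2 ratio of sample over reference, corrected for background and loess-normalized within each array, was the measure for all that follows. Spots of a feature agreed more closely than replicate arrays did. The SD between spots had a median of 0.112 over features and arrays, while the SD between arrays of a group had a median of 0.231 over features. The second was the larger in 19 of the 22 features. Feature 19 varied least, with log2 ratios between -0.09 and 0.13 on the 9 arrays. Feature 6 varied most, between -2.54 and 0.87, followed by feature 2, between -2.87 and 0.32. Across the 22 features, which are not independent replicates, the log2 ratios of a pair of arrays correlated at a median of 0.13 over 36 pairs. Pairs with the same compound had a median of 0.16 over 9 pairs and pairs with different compounds 0.10 over 27 pairs. The highest was 0.74, between the 2 arrays of deviating Cy5, and the lowest was -0.45, between KN62 replicate 1 and KN92 replicate 2. The stated dyes were kept for that last pair.

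**Figure D2:**
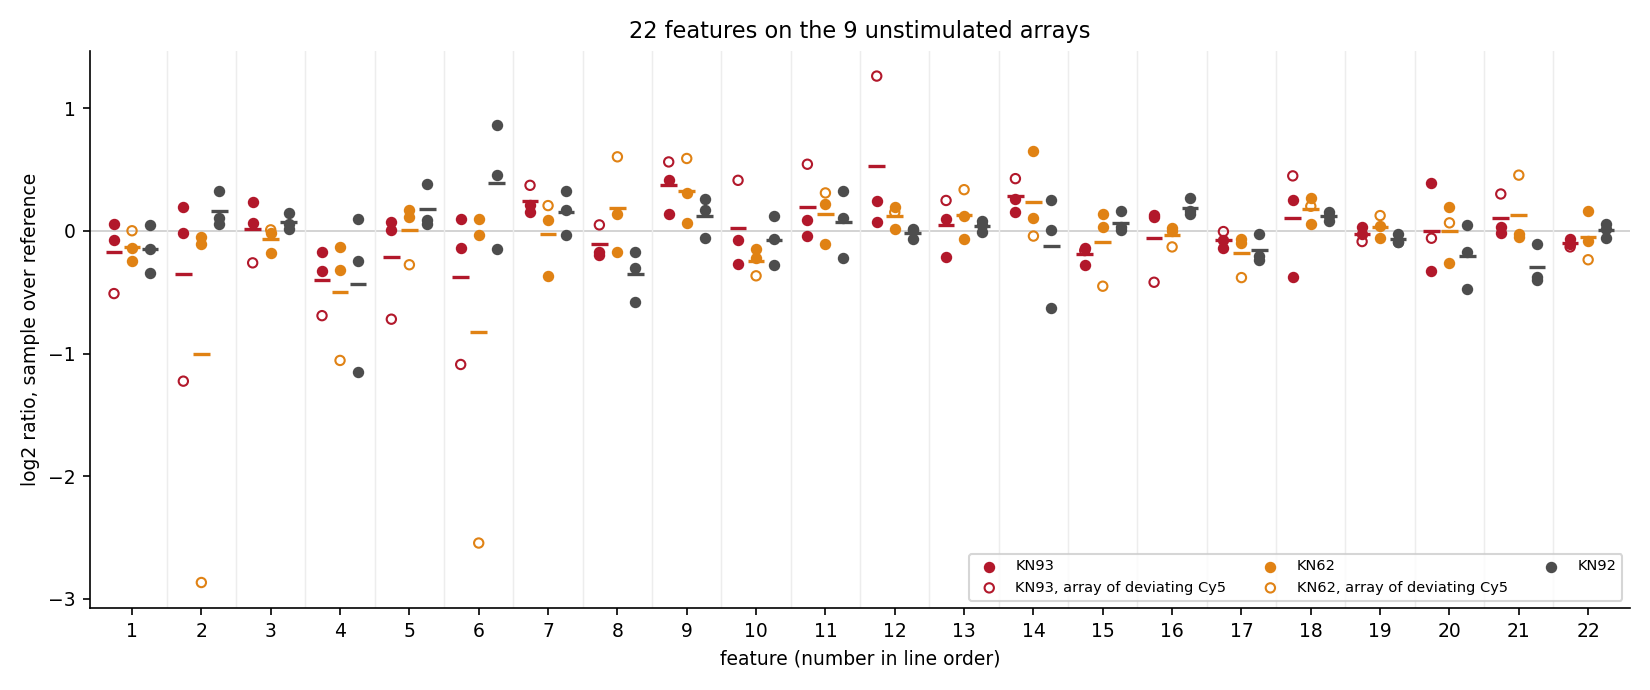
Log2 ratio of sample over reference (vertical axis) of each feature (horizontal axis) on the 9 unstimulated arrays, with KN93, KN62 and KN92 side by side and a bar at each group mean of 3 arrays. Open circles mark the arrays of deviating Cy5, which hold the lowest values of features 2 and 6 and the highest of feature 12.

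No feature changed past the threshold in KN93 fibers against KN92 fibers. By limma with Benjamini-Hochberg adjustment over the 22 features, 0 passed an adjusted p of 0.05 (0%), the lowest being 0.402, and 1 had an unadjusted p under 0.05 (4.55%). The log2 difference was above 0 for 13 features and below 0 for 9, with a median of 0.04 and a range of -0.77 to 0.54. In 5 features (22.7%) the 3 KN93 arrays did not overlap the 3 KN92 arrays. These were features 12 and 21, with every KN93 array above, and features 15, 16 and 22, with every KN93 array below. With 3 arrays against 3, an exact permutation test of a single feature cannot go below 0.10.

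Feature 12 was the highest in this comparison. Its log2 ratios were 0.07, 0.25 and 1.26 with KN93, against -0.07, 0.02 and 0.01 with KN92. The KN93 values all lay above, and replicate 3 stood far from the other two. The difference was 0.54 (95% interval -0.01 to 1.10, limma adjusted p 0.402). Without KN93 replicate 3 it was 0.17.

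Feature 14 had log2 ratios of 0.26, 0.16 and 0.43 with KN93, against -0.63, 0.25 and 0.01 with KN92. The groups overlapped, and KN92 replicate 1 was the low value. The difference was 0.40 (95% interval -0.13 to 0.94), and 0.15 without KN92 replicate 1.

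Among features above background in both groups, feature 2 was the lowest, with -0.02, 0.19 and -1.23 with KN93, against 0.11, 0.32 and 0.06 with KN92. The low value is that of replicate 3, an array of deviating Cy5. The difference was -0.51 (95% interval -2.22 to 1.19), and -0.08 without the arrays of deviating Cy5.

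Feature 5 had 0.08, 0.01 and -0.72 with KN93, against 0.38, 0.09 and 0.06 with KN92. The 2 higher KN93 values lay within or near the KN92 range, and replicate 3 was again apart. The difference was -0.39 (95% interval -0.83 to 0.06), and -0.13 without the arrays of deviating Cy5.

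Features 15 and 22 were lower on every KN93 array than on any KN92 array. Feature 15 had -0.14, -0.28 and -0.16 with KN93, against 0.16, 0.03 and 0.01 with KN92, a difference of -0.26 (95% interval -0.59 to 0.07). Without the arrays of deviating Cy5 that difference was -0.27 (95% interval -0.51 to -0.04, limma adjusted p 0.412). The difference of KN62 from KN92 was then 0.02. Feature 22 had -0.10, -0.07 and -0.13 with KN93, against 0.06, -0.06 and 0.01 with KN92, a difference of -0.11 (95% interval -0.33 to 0.12). Feature 15 was above background on all these arrays, while feature 22 was so on none of the KN93 arrays and on 1 KN92 array.

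KN62 fibers also held no feature past the threshold against KN92 fibers. In limma the number past the threshold was 0 of 22 (0%), the lowest adjusted p being 0.326, and 2 had an unadjusted p under 0.05 (9.09%). The difference was above 0 for 11 features and below 0 for 11, with a range of -1.22 to 0.54. The 3 KN62 arrays did not overlap the 3 KN92 arrays in 5 features (22.7%), above in features 12 and 21 and below in features 2, 3 and 16. The KN92 arrays are the same as in the KN93 comparison, so the values of both comparisons share them.

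Feature 8 was the highest. Its log2 ratios were 0.60, 0.14 and -0.17 with KN62, against -0.17, -0.30 and -0.58 with KN92. The groups met at -0.17, and KN62 replicate 1, of deviating Cy5, was the highest. The difference was 0.54 (95% interval 0.04 to 1.04, limma adjusted p 0.410), and 0.33 without the arrays of deviating Cy5. Without KN62 replicate 3, an array in doubt, it was 0.72. With KN93 the values were -0.20, -0.17 and 0.05, and the difference from KN92 was 0.24.

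Feature 2 was again low. It had -2.87, -0.05 and -0.10 with KN62, against 0.11, 0.32 and 0.06 with KN92. All KN62 arrays lay below, and most of the difference of -1.17 (95% interval -2.87 to 0.53) came from replicate 1. With the arrays of deviating Cy5 left out it was -0.24 (95% interval -0.61 to 0.13). On replicate 1 the quantile-normalized log2 Cy3 signal of the feature was 11.22, within the 10.79 to 11.57 of the KN92 arrays, while its Cy5 signal was 13.25.

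Feature 3 had 0.01, -0.18 and -0.02 with KN62, against 0.15, 0.05 and 0.02 with KN92. The groups were separated by a narrow margin, and the feature was not above background on any of these arrays.

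Feature 6 stood apart in how often it was seen at all, and was singled out after its values were known. With KN93 3, 0 and 2 of its 6 spots were above background and with KN62 none were, against 6, 6 and 4 with KN92. By its Cy3 signal it thus counted as above background on all 3 KN92 arrays and on no inhibitor array. Of all 132 feature spots, 109, 108 and 113 were above background on the KN92 arrays. The numbers were 97, 88 and 106 with KN93 and 103, 101 and 108 with KN62. Features 18 and 19 were also above background on all 3 KN92 arrays and on fewer arrays of each inhibitor. In the reference channel 6, 5 and 2 of the spots of feature 6 were above background with KN92. With KN93 these were 0, 0 and 6, and with KN62 6, 0 and 0, each 6 on an array of deviating Cy5. In log2 ratio feature 6 had 0.10, -0.14 and -1.09 with KN93, -2.54, -0.03 and 0.09 with KN62, and 0.87, 0.46 and -0.15 with KN92. The ratios of the groups overlapped, with differences from KN92 of -0.77 (95% interval -2.07 to 0.54) for KN93 and -1.22 (95% interval -2.52 to 0.09) for KN62. KN93 replicate 3 and KN62 replicate 1 held the lowest values, and without the arrays of deviating Cy5 the differences were -0.41 (95% interval -0.94 to 0.12) for KN93 and -0.36 (95% interval -0.89 to 0.17) for KN62. The inhibitor arrays give only a bound, so the Cy3 signal of KN92 was set against the lowest signal above background on each inhibitor array, or the feature's own where higher. The mean over the 3 KN92 arrays was 1.19-fold the bound for KN62 (limma adjusted p of the ratio 0.476). This fold has no interval and is open to dye bias without swapped dyes, and no fold can be given for KN93. KN62 replicate 1, of deviating Cy5, enters it. On KN92 replicate 3 the median Cy3 signal of the feature, 412.5 units, lay under its median background of 431. On the normalized scale used for the fold, the measured mean log2 Cy3 signal was 9.38 with KN93, 8.66 with KN62 and 9.55 with KN92.

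**Figure D3:**
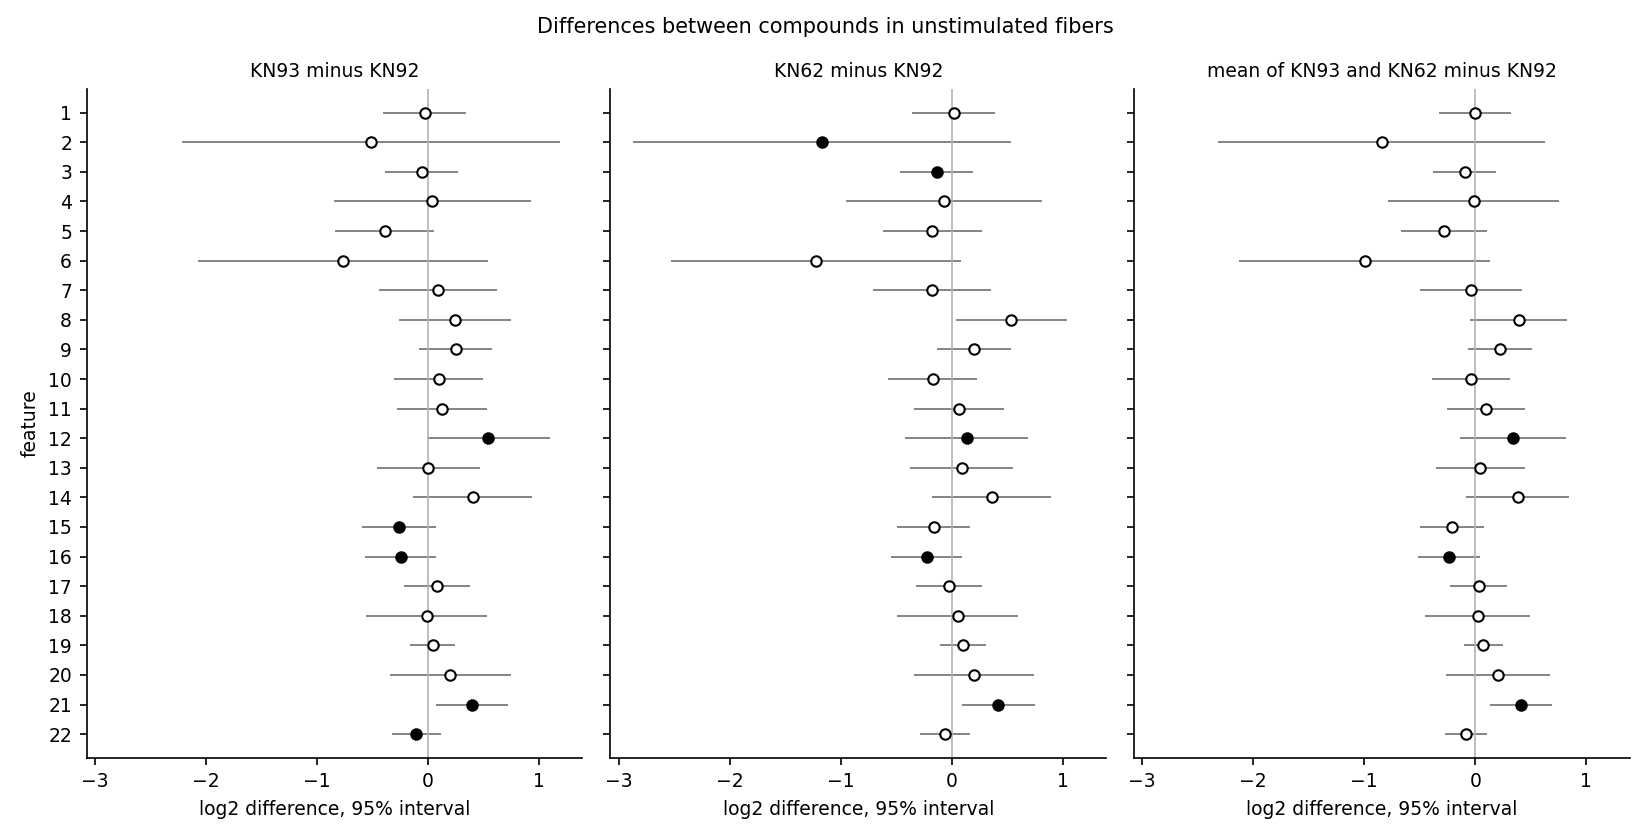
Log2 differences (horizontal axis) of the 22 features (vertical axis) between unstimulated groups with 95% intervals, for KN93 minus KN92, KN62 minus KN92 and the mean of both minus KN92. Filled points are features whose groups do not overlap, and 0 of the 22 features pass an adjusted p of 0.05 in any panel.

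The 2 inhibitors were also set against each other. In KN93 minus KN62 limma called no feature (0%), the lowest adjusted p was 0.929, and 0 had an unadjusted p under 0.05. In 0 features did the 3 KN93 arrays lie apart from the 3 KN62 arrays. Among features above background in both groups, the highest difference was that of feature 2, at 0.66 (95% interval -1.05 to 2.36), followed by feature 12 at 0.41 (95% interval -0.15 to 0.96). The lowest were feature 8 at -0.29 (95% interval -0.80 to 0.21) and feature 5 at -0.22 (95% interval -0.66 to 0.23). All of these rest on an array of deviating Cy5. Leaving out KN62 replicate 1 turned feature 2 to -0.27 and brought feature 8 to -0.087. Leaving out KN93 replicate 3 brought feature 12 to 0.039 and turned feature 5 to 0.039. Feature 15 went from -0.10 to -0.29 (95% interval -0.55 to -0.03, limma adjusted p 0.669) without the arrays of deviating Cy5. With all arrays the 95% interval of KN93 minus KN62 stayed within 1 log2 unit of 0 for 20 features and within 0.5 for 10. Its half-width ran from 0.204 to 1.70 between features. With p-values adjusted over the 3 pairs of compounds and 22 features together, the lowest was 0.648, for feature 21 in both comparisons with KN92.

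What both inhibitors share was read from the mean of KN93 and KN62 minus KN92. This mean can also differ from 0 when only 1 inhibitor does, and both are set against the same 3 KN92 arrays. By limma 0 of 22 features passed (0%), the lowest adjusted p being 0.166, and 1 had an unadjusted p under 0.05 (4.55%). In 3 features (13.6%) all 6 inhibitor arrays lay on the same side of all 3 KN92 arrays: features 12 and 21 above, and feature 16 below. An exact two-sided permutation test over these 9 arrays has 84 splits and a smallest p of 0.0119.

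Feature 21 had the lowest p. Its log2 ratios were -0.02, 0.03 and 0.30 with KN93 and 0.46, -0.03 and -0.05 with KN62, against -0.37, -0.40 and -0.11 with KN92. Each inhibitor array lay above the highest KN92 array, by a small margin for KN62 replicate 3. On KN93 replicate 2 only 1 of the 6 spots of the feature was above background, so its 0.03 carries little signal, and the mean difference given next was 0.43 without that array. The group means were 0.10 ± 0.17 with KN93, 0.13 ± 0.28 with KN62 and -0.30 ± 0.16 with KN92 (SD, n = 3 each).

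The difference of feature 21 from KN92 was 0.40 (95% interval 0.07 to 0.73) with KN93 and 0.42 (95% interval 0.10 to 0.75) with KN62. Without KN93 replicate 3 the first was 0.30 (95% interval -0.05 to 0.65), and without KN62 replicate 1 the second was 0.26 (95% interval -0.04 to 0.56). With that KN62 array left out, 0 features had an unadjusted p under 0.05 in KN62 minus KN92. In the mean of both it was 0.41 (95% interval 0.13 to 0.69), with a limma adjusted p of 0.166 and an exact permutation p of 0.0238, or 0.437 after adjustment over 22 features. Both triplets of spots gave similar values, 0.39 and 0.44. Without the arrays of deviating Cy5 the difference was 0.28 (95% interval 0.04 to 0.51), and without the 2 arrays in doubt it was 0.55 (95% interval 0.22 to 0.88, limma adjusted p 0.0776).

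The channels of feature 21 did not both follow the ratio. The quantile-normalized log2 Cy3 signal, that of the fibers, averaged 9.90 with KN93, 10.20 with KN62 and 10.19 with KN92. The Cy5 signal, that of the reference, averaged 9.51 with KN93, 9.70 with KN62 and 10.16 with KN92. The mean of both inhibitors minus KN92 was -0.14 (95% interval -0.71 to 0.42) in the sample channel and -0.56 (95% interval -1.12 to 0.00) in the reference channel, with limma adjusted p of 0.870 and 0.953. On average the higher ratio therefore went with a lower reference signal, and the sample signal was not higher. The Cy5 signal of KN93 replicate 1 was 10.11, within the 10.03 to 10.43 of KN92. KN93 replicate 2 had 9.10, with 0 of 6 reference spots above background. The arrays of deviating Cy5 had 9.32 and 9.58, and KN62 replicates 2 and 3 had 9.71 and 9.80. A spot's channels share its printed DNA, and which of these values follows the RNA of the fibers was not tested.

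**Figure D4:**
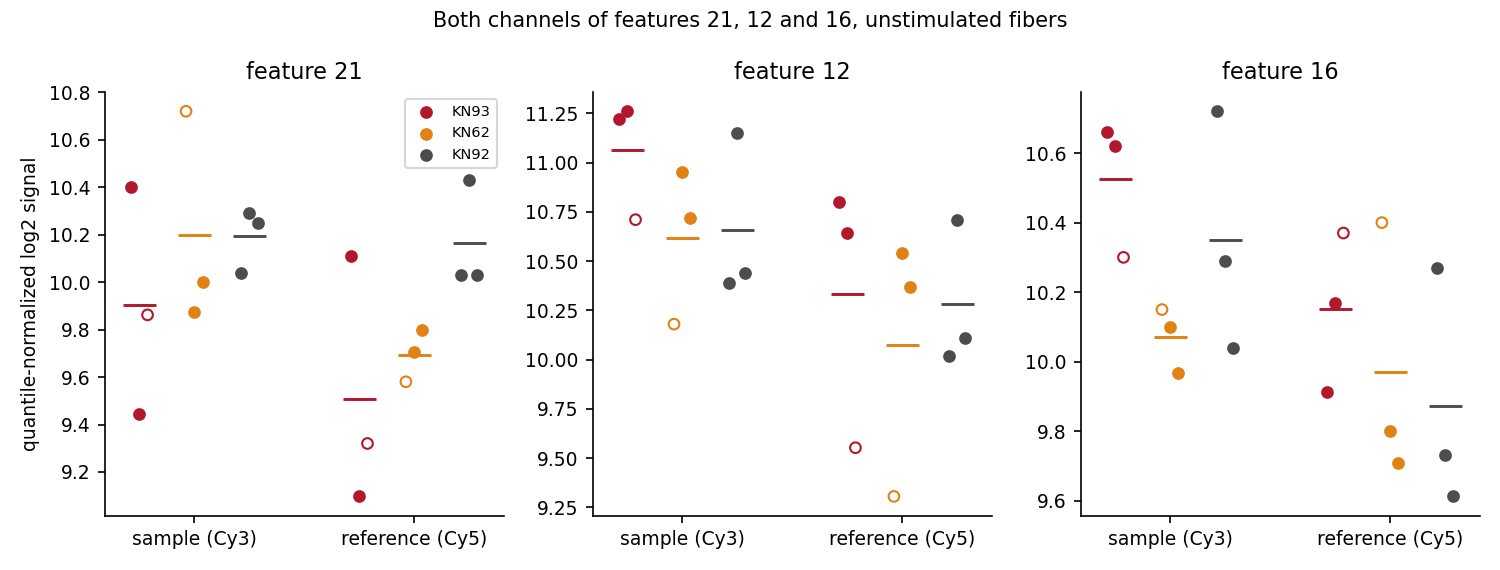
Quantile-normalized log2 signal (vertical axis) of the sample (Cy3) and the reference (Cy5) for features 21, 12 and 16 on the 9 unstimulated arrays, with KN93, KN62 and KN92 from left to right and bars at group means. Open circles are the arrays of deviating Cy5, and for feature 21 the KN92 mean is the highest of the 3 in Cy5.

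Feature 12 had log2 ratios of 0.15, 0.02 and 0.19 with KN62, beside the KN93 and KN92 values above. The lowest of these exceeded the highest KN92 value by less than the SD between spots. The difference from KN92 was 0.14 (95% interval -0.42 to 0.69) with KN62 and 0.34 (95% interval -0.14 to 0.82) in the mean of both inhibitors, with a limma adjusted p of 0.371. Without the arrays of deviating Cy5 the mean difference was 0.15, and the size thus rested on KN93 replicate 3. On that array the Cy3 signal was 10.71, within the 10.39 to 11.15 of the KN92 arrays, and the Cy5 signal of 9.55 was below their 10.02 to 10.71.

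Feature 16 was the one below KN92. Its log2 ratios were 0.13, 0.12 and -0.42 with KN93 and -0.13, 0.03 and 0.00 with KN62, against 0.27, 0.16 and 0.14 with KN92. The gap between the lowest KN92 array and the nearest KN93 array was narrow. The mean difference was -0.24 (95% interval -0.51 to 0.04, limma adjusted p 0.371), with -0.25 for KN93 and -0.23 for KN62. Without the arrays of deviating Cy5 it was -0.12 (95% interval -0.29 to 0.05), with -0.07 for KN93 and -0.18 for KN62.

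The same contrast can be read in the stimulated arrays, whose values do not enter the resting differences but do enter the shared estimate of the spread. With only the 9 unstimulated arrays in the fit, the lowest adjusted p of the mean contrast at rest was 0.454 by limma, against 0.166 with all arrays. In the stimulated arrays the mean of both inhibitors minus KN92 was 0.16 (95% interval -0.14 to 0.45) for feature 21. It was 0.51 (95% interval 0.01 to 1.01) for feature 12 and -0.22 (95% interval -0.51 to 0.07) for feature 16. That stimulated contrast held no feature past the threshold in limma (0%) and 1 with an unadjusted p under 0.05 (4.55%). The resting minus the stimulated difference was 0.26 (95% interval -0.15 to 0.66) for feature 21, -0.17 (95% interval -0.86 to 0.52) for feature 12 and -0.01 (95% interval -0.41 to 0.39) for feature 16, with a limma adjusted p of 0.981 for each. The stimulated arrays also include 2, both with inhibitors, that were grouped with those of deviating Cy5 by their experiment. Stimulated KN93 had 2 arrays, 1 of them read from 2 scans after its grid was moved by 1 column. The Cy3 signal of replicate 1 then correlated at 0.95 with the mean of the other arrays, against 0.13 as deposited.

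The other features gave intervals that include 0 in all 4 comparisons at rest. In the mean of both inhibitors minus KN92, features 9, 20 and 11 were at 0.23, 0.20 and 0.10, and features 19, 13, 17 and 18 were at 0.07, 0.05, 0.03 and 0.02. Feature 20 was above background on 1 array per compound, and its 2 triplets gave 0.485 and -0.082 in this contrast. Features 1, 4, 10 and 7 were at -0.0049, -0.02, -0.04 and -0.04. Of the features described above, 8 and 14 were at 0.39 and 0.38 in this contrast, 5 and 15 at -0.28 and -0.21, and 3 and 22 at -0.10 and -0.08. The interval was narrowest for feature 19, at -0.10 to 0.25, and that of feature 1 ran from -0.33 to 0.32. The ratios of feature 1 include saturated spots, most of them with KN62. Feature 4 was less well determined, at -0.78 to 0.75, with KN92 replicate 1 at -1.15 and KN62 replicate 1 at -1.06. For feature 9, KN93 arrays had 0.42, 0.14 and 0.56 and KN62 arrays 0.59, 0.07 and 0.31, against -0.06, 0.17 and 0.26 with KN92, and the groups overlapped. Its mean difference was 0.11 without the arrays of deviating Cy5. Feature 10 was at 0.10 with KN93 and -0.17 with KN62 against KN92, and feature 7 at 0.09 and -0.18, each with intervals that include 0.

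Over all features, the half-width of the 95% interval had a median of 0.425 log2 units in a comparison of 2 compounds and of 0.368 in the mean of both inhibitors. In the mean contrast the interval lay within 1 log2 unit of 0 for 20 features, all but features 2 and 6, and within 0.5 for 10. The half-width in that contrast ran from 0.177 to 1.47 between features, so the size that 3 arrays per compound could tell from 0 differed by feature.

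**Figure D5:**
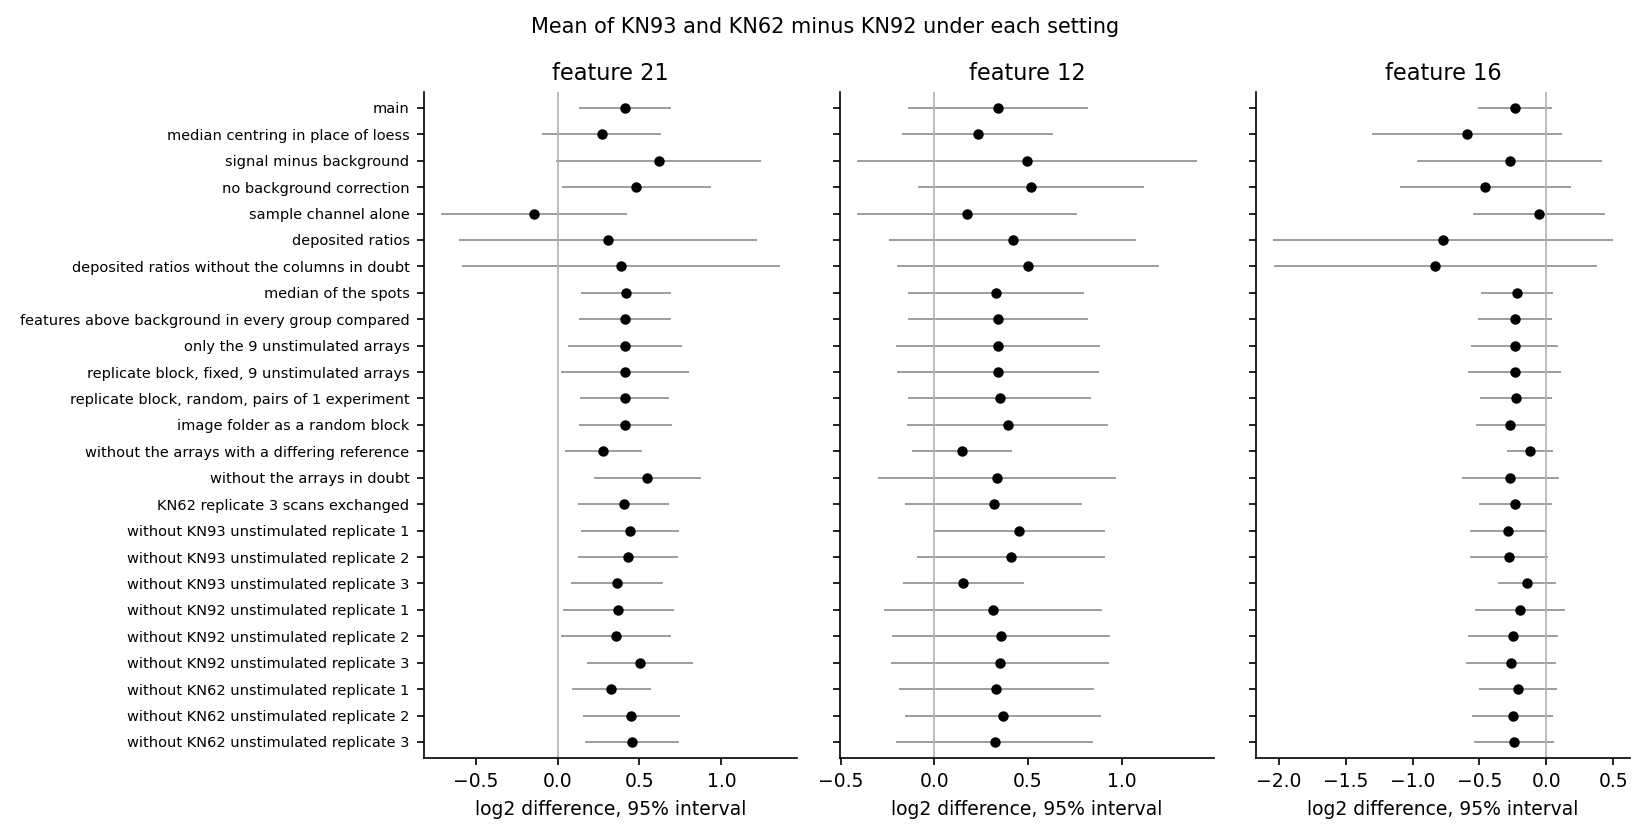
Log2 difference of the mean of KN93 and KN62 minus KN92 with its 95% interval (horizontal axis) for features 21, 12 and 16 under each way of processing the arrays (vertical axis), including each array left out in turn. The difference of feature 21 is above 0 in all settings but the sample channel alone, where it is -0.14.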

How the data were processed

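Per the file headers, version 5.5 of a quantification program gave each spot an intensity, as median signal and median background in each channel. In the deposited table the authors give each feature spot a score, already computed as its sample-to-reference ratio on a linear scale. The column deposited for stimulated KN93 replicate 2 also holds values below 0, and was read as a ratio like the other columns. All 132 of its cells are filled, and it follows its own scan (median difference 0.05 on the log2 scale). The deposited table served as an alternative. Medians were corrected with normexp (offset 50) and normalized by loess within each array, the 12 spots outside features at weight 0. Features took the mean of at least 2 spots. A limma 3.58.1 model (R 4.3.3) with 6 group means was fitted to 17 arrays, since 2 scans of stimulated KN93 fibers come from 1 array. Benjamini-Hochberg adjustment ran over 22 features, with a threshold of 0.05. Scripts were tested on simulated data. Members and lists were chosen with earlier results of these data known. Features described in detail were, per comparison, the 2 highest and 2 lowest differences among those above background in every group, and those with all 6 inhibitor arrays on one side of KN92. Alternatives covered background correction, normalization, channel, source of ratios, spot summary, filter, blocks and arrays left out. The array numbers, not read depth, limit precision. Replicate numbers were not taken to pair the unstimulated arrays of different compounds. After subtraction of each compound's mean, same-numbered arrays correlated at -0.56 to 0.66, and the titles number some arrays more than once.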

Additional observations from a re-analysis of the deposited data

Results flagged for a closer look

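Outside the 22 features, 12 spots of each array take no part in any comparison, and they were looked at because many stand above the local background. Over the 9 unstimulated arrays 87 of these 108 spots had a Cy3 signal above the local background. Of the 132 feature spots, 88 to 113 per array were above it. Dim features also had some spots above it, 4 of 54 in feature 3 and 9 of 54 in feature 22, so a single such spot is not by itself a signal. The number of outside spots above background per array was 8 to 10 with KN93, 11 to 12 with KN62 and 7 to 11 with KN92. On KN93 replicate 2 their median Cy3 signal, 4590, was below their median background of 4910. What these spots hold is not given in the sources used here.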

How the results depend on the processing

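The count of features past the threshold was 0 in all 4 comparisons and in all 96 alternative counts. Of the single differences named, 528 kept their direction and side of the threshold and 24 turned direction, none of them past the threshold on either side; the cause was not tested. In the sample channel alone, features 16 and 21 were at 0.17 and -0.29 in KN93 minus KN92, feature 12 at -0.046 in KN62 minus KN92, features 2 and 16 at -0.37 and 0.45 in KN93 minus KN62, and features 8 and 21 at -0.12 and -0.14 in the mean contrast. The other turns were in KN93 minus KN62, where features 16 and 21 are both at -0.02. Feature 16 was at 0.24 under median centring, 0.041 with signal minus background, 0.24 with the deposited ratios, 0.36 with those without the columns in doubt and 0.11 without the arrays of deviating Cy5. Feature 21 was at 0.40 with the deposited ratios, 0.23 with those without the columns in doubt, 0.022 with image folders as a random block and 0.044 without the arrays of deviating Cy5. Feature 12 was at -0.085 with the deposited ratios without the columns in doubt. With each array left out in turn, KN93 minus KN62 ran from -0.27 to 1.14 for feature 2, -0.36 to 0.039 for feature 5, -0.12 to 0.16 for feature 16 and -0.12 to 0.14 for feature 21. The adjusted p of feature 21 in the mean contrast ranged from 0.0776 to 0.870 over the alternatives. Without the 2 arrays in doubt, the lowest limma adjusted p was 0.236 for KN93 against KN92 and 0.127 for KN62 against KN92. Both were those of feature 21. The replicate block changed no call. With the replicate number as a fixed block, 0 features passed. The lowest limma adjusted p was then 0.637 for KN93 against KN92 and 0.681 for KN62 against KN92. It was 0.953 for KN93 against KN62 and 0.502 in the mean contrast. After subtraction of each compound's mean, 2 of 9 arrays correlated best with an array of their own number. With the stimulated and unstimulated array of an experiment as a random replicate block (consensus correlation 0.371), 0 features passed in each comparison. Each image folder held 1 compound, so a fixed folder block and values within folders were not run, and folder and compound cannot be told apart there. Exchanging the KN62 replicate 3 scans was chosen after seeing the data, as were the reference channel alone and the stimulated contrast. Signal over background limits features 3, 6, 13, 20 and 22 most.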
